A study of Mus musculus with 9 samples.

Results

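The interferon-stimulated genes described here are 41 genes named for their place in the interferon response, and all 41 were found by symbol among the 43346 genes of the deposited table. RNA-Seq had been done on lung fibroblasts sorted by flow cytometry from male Col1a1-GFP transgenic mice on an FVB background, whose age the labels give as 72 weeks in one place and as 18 months in another. Aged sham mice (n = 4) received 1 intratracheal dose of saline and aged bleo mice (n = 5) received 1 of bleomycin, a drug that injures the lung and leads to fibrosis, and all lungs were taken on day 30. Every mouse of both groups carried the reporter, in which the collagen I promoter drives GFP, and the sorted cells were GFP+, CD45-, CD31- and EpCAM-, so the model covers cells with an active collagen I promoter and not every fibroblast of the lung. The comparison asks which of these genes differed between fibroblasts of injured and uninjured aged lungs, and samples from young mice are not covered.

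Interferons are secreted proteins that tell cells of viral infection or damage. Type I interferons bind the receptor pair Ifnar1 and Ifnar2, and the JAK kinases then activate a complex with Stat2 and Irf9 that binds the interferon-stimulated response element (ISRE) near its target genes. Interferon gamma, made by T and NK cells, binds Ifngr1 and Ifngr2 and acts on genes that carry the gamma-activated sequence (GAS). The induced genes block viral entry, translation and replication, sense foreign nucleic acid, attack the vacuoles of intracellular microbes, or feed back on the pathway, and fibroblasts are classic responders to both kinds of interferon.

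The 9 libraries held 49921946 to 68260600 counts each, so that the 3 counts allowed by a count of 0 correspond to 0.0409 to 0.0605 CPM (counts scaled to library size, with TMM factors), a limit that covers counting error only. All 41 genes passed the filter of an average count of at least 25, which 16877 genes passed. Col1a1 was at 3649 to 4559 CPM in aged sham and at 13560.2 to 25954 CPM in aged bleo. Because the sort took GFP+ cells and the collagen I promoter drives GFP, this level is no separate check of the labelled cell type. Dcn and Tcf21, which also mark lung fibroblasts, fell in aged bleo with log2 fold changes of -1.54 and -1.10 (FDR = 0.00667 and 0.0121). Of the genes for the proteins that the sort gated against, Epcam was at 0.485 to 0.798 CPM in aged sham and 0.409 to 1.20 CPM in aged bleo, Pecam1 (CD31) at 5.63 to 6.70 and 2.44 to 6.39 CPM, and Ptprc (CD45) at 42.3 to 169 and 30.6 to 183 CPM. RNA of other cells differed between the libraries. The 12 macrophage markers summed to 199 to 340 CPM in aged sham and to 569, 783, 666, 1793 and 1011 CPM in aged bleo 1 to 5. Of the 12, 6 rose (50%, where 12.3% of all tested genes rose). The 8 pan-leukocyte markers summed to 116 to 438 CPM in aged sham, highest in aged sham 4, and to 121 to 671 CPM in aged bleo, highest in aged bleo 4. Of the 8, 1 rose (12.5%, near the 12.3% of all tested genes). T and NK cell markers summed to 4.91 to 14.5 and 1.71 to 30.5 CPM, with Cd3g and Gzma at 0 in at least 1 library. Of the 6 tested, 1 was called higher (16.7%, where 12.3% of all tested genes were). Plasmacytoid dendritic cell markers, of which Siglech was at 0 in at least 1 library, summed to 1.20 to 1.90 and 0.409 to 1.81 CPM with none tested. The part of these cells in the results was not tested, and in bulk RNA a change in the number of cells of a type and a change in RNA per cell cannot be told apart.

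The interferon-stimulated genes did not move one way. In aged bleo compared with aged sham, 3 of the 41 rose (Mx1, Iigp1 and Ifi44), 4 fell (Irf1, Cmpk2, Gbp2 and Ifit2), and 34 did not pass both thresholds of edgeR's quasi-likelihood test across all genes, which were an FDR below 0.10 and more than a 1.5-fold change. The 7 called genes are 17.1% of the 41, where 23.8% of all tested genes were called, 12.3% higher and 11.5% lower. At an FDR under 0.10 with no limit on the fold, 18 of the 41 differed, 5 higher and 13 lower, where 44.8% of all tested genes did, 23.4% higher and 21.4% lower. The median log2 fold change of the 41 genes was -0.10 and 26 of them (63.4%) had a negative value, while the median of all tested genes was 0.01 and 49.3% had a negative value. Every aged bleo library lay below every aged sham library for 12 of the 41 genes and above for 1 (Mx1), where 16.1% of all tested genes did so in each direction, and the groups overlapped for 28. Leaving out 1 library changed parts of this: the median ran from -0.22 without aged bleo 4 to 0.02 without aged sham 1, and without aged bleo 1 or aged bleo 2 the genes called higher numbered 5 each time. With aged sham 4 and aged bleo 4 both left out the median was -0.24. Irf1, Cmpk2 and Iigp1 were called under each of the alternative settings tried, and Gbp2 under all but the stricter thresholds.

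**Figure D1:**
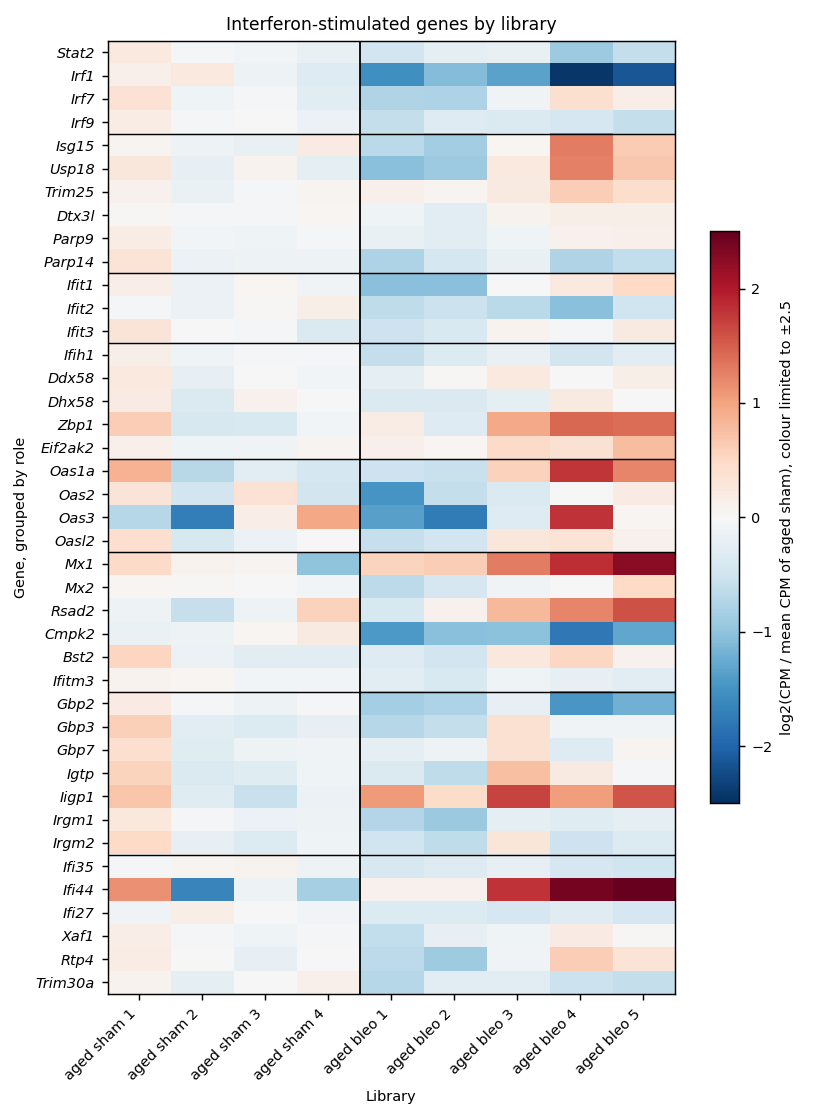
Level of each of the 41 interferon-stimulated genes (vertical axis, grouped by role) in each library (horizontal axis), as log2 of its CPM over the mean CPM of aged sham, with the colour limited at the ends of the scale. Irf1 and Cmpk2 are blue in all 5 aged bleo libraries, Iigp1 is red in all 5, and many other genes are blue in aged bleo 1 and 2 and pale or red in aged bleo 3 to 5.

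**Figure D2:**
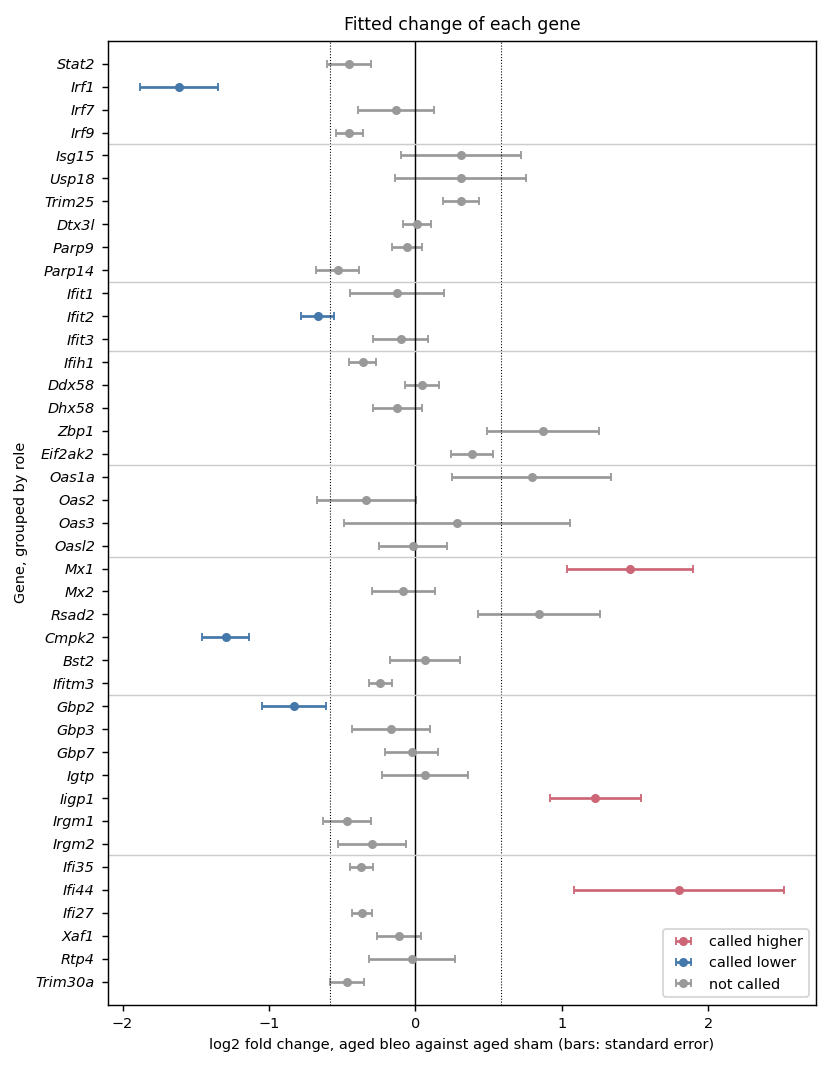
Fitted log2 fold change of each gene in aged bleo against aged sham (horizontal axis) with bars of 1 standard error, genes on the vertical axis grouped by role, and dotted lines at a 1.5-fold change. Red points mark the 3 genes called higher and blue points the 4 called lower, which range from -1.62 for Irf1 to 1.80 for Ifi44.

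Promoter sequence was read for 30 of the 41 genes from a RefSeq table of GRCm38.p6, which covers 250 bases before to 50 after each annotated start. The genes not matched by name were Usp18, Parp9, Parp14, Dhx58, Zbp1, Oas2, Mx1, Mx2, Iigp1, Ifi27 and Rtp4. The ISRE core was searched as GAAANNGAAA and, for the other strand, TTTCNNTTTC, and GAS as TTCNNNGAA, which reads the same on both strands. Matches were counted also where they overlapped. An ISRE core lay in the windows of 19 of the 30 genes (63.3%), where 4.0% of the 27025 genes in the promoter table had one, and GAS lay in 10 (33.3%), where 9.6% of all genes had one. Both were found in 7 of the 30 and neither in 8. The 23 ISRE matches that lay before the start, in 15 genes, began 14 to 222 bases from it, with a median of 66. A match describes letters in a window and is not a measured binding site.

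Of the 4 genes that fell, 3 had a match, and the stretches that hold them are shown first because these genes carry the lower calls. Irf1 had a GAS that began 90 bases before the start and no ISRE core, and Ifit2 had a GAS 241 bases before it and no ISRE core. Gbp2 had an ISRE core 59 bases before the start, and Cmpk2 had neither motif in its window. For Gbp2 the RefSeq start, from which these distances are counted, lies inside the deposited gene interval, and so does this ISRE core. Each stretch is written 5′ to 3′ on the gene's strand with the motif in capitals. Positions are chr11:53769904-53769952 on the plus strand for Irf1, chr19:34550444-34550481 on the plus strand for Ifit2, and chr3:142620584-142620633 on the plus strand for Gbp2.
Irf1: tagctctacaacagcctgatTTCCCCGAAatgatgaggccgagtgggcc
Ifit2: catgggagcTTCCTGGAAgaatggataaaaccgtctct
Gbp2: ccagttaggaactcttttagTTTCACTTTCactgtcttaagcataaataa

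Stretches of Isg15, Ifit3 and Rsad2, which were not called, are shown for comparison because Isg15 is the best-known ISRE gene and the others are neighbours of Ifit2 and Cmpk2. Isg15 (chr4:156200855-156200916, minus strand) had 3 ISRE cores that overlap each other, Ifit3 (chr19:34583353-34583436, plus strand) had 2, and Rsad2 (chr12:26456543-26456592, minus strand) had 1.
Isg15: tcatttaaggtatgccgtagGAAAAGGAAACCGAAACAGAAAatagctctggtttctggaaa
Ifit3: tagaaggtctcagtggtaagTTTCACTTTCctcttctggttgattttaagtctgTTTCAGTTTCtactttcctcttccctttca
Rsad2: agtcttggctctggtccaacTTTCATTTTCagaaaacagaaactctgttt

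The 6 guanylate-binding and immunity-related GTPase genes with a window all had an ISRE core. In Igtp (chr11:58199491-58199551, plus strand) and Irgm2 (chr11:58214882-58214942, plus strand) a GAS stood next to the ISRE core, and 59 of the 61 bases printed below (96.7%) were identical between these genes. The stretch of Irgm2 also lies inside that gene's deposited interval, which starts before the RefSeq start.
Igtp: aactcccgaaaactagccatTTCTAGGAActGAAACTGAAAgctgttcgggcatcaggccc
Irgm2: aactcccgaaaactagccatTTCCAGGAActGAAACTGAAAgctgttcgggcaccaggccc

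**Figure D3:**
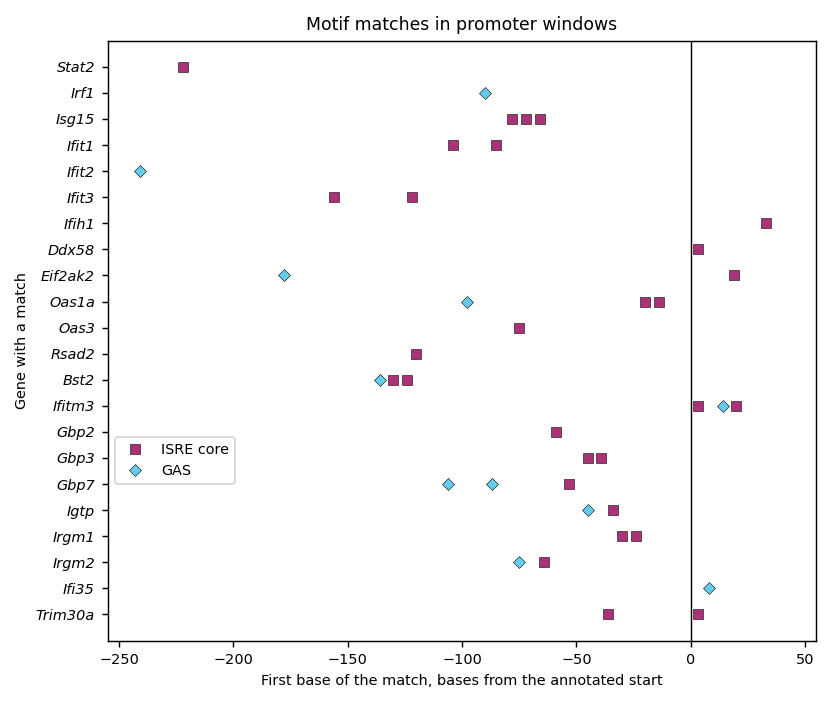
First base of each ISRE core (squares) and GAS (diamonds) match, in bases from the annotated start (horizontal axis, start at the vertical line), for each gene with a match (vertical axis). Most squares lie within the 250 bases before the start, with a median distance of 66 bases for those 23 matches.

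Among the 4 transcription factors, Irf1 fell and the others had negative fold changes that stayed under 1.5-fold. Irf1 (ENSMUSG00000018899, chr11:53770014-53778374), a factor that is strongly induced by interferon gamma and drives GBP and antigen presentation genes, was at 472, 509.7, 395 and 343 CPM in aged sham 1 to 4 and at 149, 203, 171, 80.2 and 97.8 CPM in aged bleo 1 to 5. All aged bleo libraries were below all aged sham libraries, with means of 429.8 ± 75.2 and 140.2 ± 51.0 CPM (SD, n = 4 and n = 5). The log2 fold change was -1.62 ± 0.27 (SE; FDR = 0.00243), and it ran from -1.79 to -1.48 as each library was left out in turn. The predicted gene Gm17334, with 7262 counts in all beside the 136086 of Irf1, overlaps Irf1. Irf9 (18934 counts) overlaps Rnf31 (16201), and Irf7 (7873 counts) overlaps Phrf1 (25947). Reads of the shared bases may not be separated. Irf9 and Stat2, which act together in the ISRE-binding complex, were at 39.2 to 49.4 and 44.6 to 60.2 CPM in the aged sham libraries and at 28.7 to 34.9 and 27.2 to 44.7 CPM in the aged bleo ones. Their log2 fold changes were -0.45 (FDR = 0.00595) and -0.45 (FDR = 0.0433), so both differed by the test while staying under the 1.5-fold limit. Irf7, the factor that amplifies interferon alpha production, was at 12.9 to 20.4 CPM in aged sham and at 9.29 to 21.0 CPM in aged bleo, and its log2 fold change of -0.13 was within the spread (FDR = 0.725).

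None of the 6 genes of the ISG15 system and its ubiquitin and ADP-ribose ligases passed both thresholds in edgeR, DESeq2 or limma. In edgeR, 23.8% of all tested genes passed both. Trim25 and Parp14 had an unadjusted p under 0.05 in edgeR. These 2 of the 6 also had an FDR under 0.10 at any fold, where 44.8% of all tested genes did. Isg15, a ubiquitin-like protein that is attached to newly made proteins, was at 10.6, 9.26, 8.80 and 11.7 CPM in aged sham 1 to 4 and at 6.32, 5.51, 10.4, 24.6 and 15.7 CPM in aged bleo 1 to 5. Aged bleo 1 and 2 were below every aged sham library and aged bleo 4 and 5 were above every one, so the groups overlapped widely (log2 fold change 0.31 ± 0.41, FDR = 0.582). Usp18, the protease that removes Isg15 and damps signalling at Ifnar2, was likewise below every aged sham library in aged bleo 1 and 2 and above every one in aged bleo 4 and 5, with a range of 1.80 to 8.92 CPM in aged bleo and 3.19 to 4.57 CPM in aged sham (FDR = 0.621). Trim25, the ubiquitin ligase that activates RIG-I, was at 35.7 to 43.5 CPM in aged sham and 42.3 to 61.9 CPM in aged bleo, a difference that passed the test but was under 1.5-fold (log2 fold change 0.31, FDR = 0.0723). Parp14, an ADP-ribosyl transferase, had no aged bleo value as high as its lowest aged sham value, with a log2 fold change of -0.53 (FDR = 0.0229) that was just under the limit and passed it when aged bleo 3 was left out (-0.63, FDR = 0.0123). Dtx3l and Parp9, whose proteins form a ligase complex, were at 24.8 to 26.7 and 29.8 to 36.5 CPM in aged sham and at 21.4 to 28.7 and 26.3 to 35.0 CPM in aged bleo. Neither differed by the test (FDR = 0.936 and 0.698), and because the deposited intervals of Dtx3l and Parp9 overlap, reads of the shared bases may not be separated.

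Of the 3 IFIT genes, whose proteins bind viral RNA ends and block their translation, Ifit2 fell. Ifit2 (ENSMUSG00000045932, chr19:34550694-34576419) was at 33.5, 31.2, 35.0 and 38.4 CPM in aged sham 1 to 4 and at 22.2, 23.8, 21.7, 16.7 and 24.3 CPM in aged bleo 1 to 5. The groups did not overlap, and the log2 fold change was -0.67 ± 0.11 (SE; FDR = 0.00292). Its fold was close to the limit, and with aged sham 4 and aged bleo 4 both left out it was no longer past it (-0.55, FDR = 0.00337). The same held with limma on log2(FPKM + 1) (-0.48, FDR = 0.00235). Ifit3, whose gene starts 7111 bases beyond the end of Ifit2 with no coding gene between, had a log2 fold change of -0.10 (FDR = 0.704), with 8.31 to 13.4 CPM in aged sham and 7.46 to 12.6 CPM in aged bleo. In 51.2% of its 50-base windows the Ifit3 transcript is identical to another gene, mostly Ifit3b, so its counts are uncertain. Ifit1 spanned 6.72 to 8.37 CPM in aged sham and 3.61 to 10.6 CPM in aged bleo, with aged bleo 5 highest (FDR = 0.786).

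The 5 sensors of foreign or Z-form nucleic acid held no called gene in edgeR or limma and 1 in DESeq2 (Zbp1). In edgeR, 23.8% of all tested genes were called. In edgeR, 3 of the sensors had an unadjusted p under 0.05 (Ifih1, Eif2ak2 and Zbp1). At an FDR under 0.10 and any fold, 2 of the 5 differed (Ifih1 and Eif2ak2), where 44.8% of all tested genes did. Ddx58, which encodes the RNA sensor RIG-I and had the highest FPKM of the 5, was at 56.0, 40.9, 46.8 and 44.7 CPM in aged sham 1 to 4 and at 39.8, 48.2, 56.0, 46.9 and 52.3 CPM in aged bleo 1 to 5. Both groups covered almost the same range (log2 fold change 0.05 ± 0.12, FDR = 0.790). Ifih1, which encodes the RNA sensor MDA5, was at 17.2 to 22.7 CPM in aged bleo, all below its 24.1 to 28.6 CPM in aged sham (log2 fold change -0.36, FDR = 0.0169), which is under 1.5-fold. Dhx58, which encodes the regulator LGP2, had values of 4.48 to 6.65 CPM in aged sham and 4.46 to 6.69 CPM in aged bleo (FDR = 0.594). Eif2ak2, which encodes the kinase PKR that halts translation, was at 24.7 to 29.0 CPM in aged sham and at 27.5 to 45.9 CPM in aged bleo, with a log2 fold change of 0.39 (FDR = 0.0666). Zbp1, the sensor of Z-form nucleic acid that can start necroptosis, was at 5.44 to 10.9 CPM in aged sham, highest in aged sham 1, and at 5.76 to 19.3 CPM in aged bleo, highest in aged bleo 4. Its log2 fold change of 0.87 ± 0.38 missed the FDR limit (FDR = 0.103) and passed it without aged sham 1 (FDR = 0.0625), without aged bleo 1 (FDR = 0.0794), without aged bleo 2 (FDR = 0.0285), and with DESeq2 (FDR = 0.0541).

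No gene of the OAS family, whose enzymes make the second messenger that activates RNase L, was called by edgeR, DESeq2 or limma. In edgeR, 0 of the 4 had an unadjusted p under 0.05. Of all tested genes, 23.8% were called in edgeR and 44.8% had an FDR under 0.10 at any fold. Oasl2, the member with the highest FPKM, was at 40.6, 22.9, 27.4 and 30.2 CPM in aged sham 1 to 4 and at 20.4, 21.8, 36.6, 38.3 and 32.8 CPM in aged bleo 1 to 5 (log2 fold change -0.02 ± 0.23, FDR = 0.968). The group means, 30.3 ± 7.49 and 30.0 ± 8.37 CPM (SD, n = 4 and n = 5), differed by far less than the spread within each group. Oas1a had a wide spread on both sides, 1.75 to 5.15 CPM in aged sham with aged sham 1 highest and 1.94 to 9.78 CPM in aged bleo with aged bleo 4 highest, and its log2 fold change was 0.79 ± 0.54 (FDR = 0.281). Its transcript is identical to another gene, mostly Oas1g, in 57.6% of 50-base windows, so its counts are uncertain. Oas2 and Oas3 lie 3244 bases apart and were low, with 2.86 to 5.06 and 1.41 to 4.56 CPM for Oas2 in aged sham and aged bleo (log2 fold change -0.33 ± 0.34, FDR = 0.468). Oas3 had 0.359 to 2.34 CPM in aged sham and 0.355 to 4.19 CPM in aged bleo, with as few as 20 counts in a library (log2 fold change 0.28 ± 0.77, FDR = 0.803).

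The 6 antiviral effectors held a gene that rose and one that fell. Mx1 (ENSMUSG00000000386, chr16:97447035-97462907), a dynamin-like GTPase that blocks influenza virus and is defective in most laboratory strains, was at 1.53, 1.16, 1.15 and 0.545 CPM in aged sham 1 to 4 and at 1.62, 1.67, 2.65, 3.96 and 5.27 CPM in aged bleo 1 to 5. Every aged bleo library was above every aged sham library, although aged bleo 1 and 2 were only slightly above aged sham 1. The log2 fold change was 1.46 ± 0.43 (SE; FDR = 0.0272), from as few as 27 counts in a library, and it ran from 1.17 to 1.67 as each library was left out. On the log2(FPKM + 1) scale, which understates changes of such low genes, it was 0.26 and not past the fold limit (limma, FDR = 0.0567). With aged sham 4 and aged bleo 4 left out together it was 1.11 and only just past the FDR limit (FDR = 0.0996). Mx2, 72400 bases from Mx1, was at 4.58 to 4.97 CPM in aged sham and 3.05 to 6.79 CPM in aged bleo (log2 fold change -0.08, FDR = 0.794).

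Cmpk2 (ENSMUSG00000020638, chr12:26469204-26479835), a mitochondrial nucleotide kinase, had 16.3, 16.6, 18.9 and 21.3 CPM in aged sham 1 to 4 and 6.73, 8.83, 8.95, 5.32 and 7.42 CPM in aged bleo 1 to 5. The highest aged bleo value was well below the lowest aged sham value, with group means of 18.3 ± 2.30 and 7.45 ± 1.52 CPM (SD, n = 4 and n = 5), and the log2 fold change was -1.29 ± 0.16 (SE; FDR = 5.86e-04). Rsad2, which encodes viperin and lies 12751 bases from Cmpk2 with no coding gene between, had a fitted change of the opposite sign. It was at 0.992 to 2.22 CPM in aged sham, highest in aged sham 4, and at 1.12 to 4.49 CPM in aged bleo, highest in aged bleo 5. Its log2 fold change of 0.84 ± 0.41 did not pass the test (FDR = 0.141), and it passed without aged bleo 1 (1.04, FDR = 0.0580) or without aged bleo 2 (0.98, FDR = 0.0925). The difference between the changes of these neighbours was not tested.

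Ifitm3, which blocks viral entry at endosomes, had the highest FPKM of all 41 genes in both groups, 185 ± 10.8 in aged sham and 160.4 ± 12.3 in aged bleo (SD, n = 4 and n = 5). In CPM it was at 316, 308, 286 and 286 in aged sham 1 to 4 and at 250.3, 229, 277, 261 and 249 in aged bleo 1 to 5. All aged bleo values were below all aged sham values, and the log2 fold change of -0.24 ± 0.08 passed the test while being under 1.5-fold (FDR = 0.0401). Bst2, also called tetherin, which holds budding virus at the cell surface, was at 38.3 to 67.6 CPM in aged sham and 33.7 to 66.7 CPM in aged bleo (log2 fold change 0.06, FDR = 0.857). Its highest aged sham value, in aged sham 1, stood far above the other 3.

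Of the 7 guanylate-binding and immunity-related GTPases, which assemble on the vacuoles of intracellular microbes, Iigp1 rose and Gbp2 fell. Gbp2 (ENSMUSG00000028270, chr3:142620602-142638008) was at 187, 159, 148 and 156 CPM in aged sham 1 to 4 and at 90.5, 94.8, 141, 59.7 and 71.0 CPM in aged bleo 1 to 5. Aged bleo 3 came close to aged sham 3 and the other 4 aged bleo libraries were far below, with a log2 fold change of -0.83 ± 0.22 (SE; FDR = 0.0184). Gbp3 and Gbp7, next to Gbp2 on chromosome 3, had log2 fold changes of -0.17 and -0.02 (FDR = 0.652 and 0.932), and both overlap the deposited interval of Gbp5. The aged sham and aged bleo means were 25.4 ± 8.84 and 22.6 ± 6.99 CPM for Gbp3, and 38.9 ± 8.98 and 38.3 ± 7.99 CPM for Gbp7 (± SD, n = 4 and n = 5).

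Iigp1 (ENSMUSG00000054072) was at 74.9, 37.5, 31.5 and 41.8 CPM in aged sham 1 to 4 and at 97.1, 63.9, 149, 95.3 and 138 CPM in aged bleo 1 to 5. Aged bleo 2 was below aged sham 1 and all other aged bleo libraries were above every aged sham library. The log2 fold change was 1.23 ± 0.31 (SE; FDR = 0.0154) and ran from 1.09 to 1.56 as each library was left out. Irgm1, a regulator of the other immunity-related GTPases, was at 25.7 to 34.2 CPM in aged sham and at 14.8 to 23.9 CPM, without overlap, in aged bleo, lower by less than 1.5-fold (log2 fold change -0.47, FDR = 0.0498). Igtp and Irgm2, whose near-identical promoter stretches are printed above, had log2 fold changes of 0.06 and -0.30 (FDR = 0.887 and 0.345), and their deposited intervals overlap. Their levels were 10.7 to 20.4 CPM in aged sham and 8.92 to 23.2 CPM in aged bleo for Igtp, and 20.6 to 37.0 and 16.7 to 32.3 CPM for Irgm2.

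Among the 6 remaining genes, Ifi44 rose in the fit and 3 others differed by less than 1.5-fold. Ifi44 (ENSMUSG00000028037, chr3:151730922-151749947), a gene used in interferon scores, was at 2.84, 0.411, 1.19 and 0.726 CPM in aged sham 1 to 4 and at 1.40, 1.39, 4.50, 6.80 and 8.50 CPM in aged bleo 1 to 5. Aged bleo 1 and 2 lay below aged sham 1, aged bleo 3 to 5 lay above every aged sham library, and the lowest library had 24 counts. The log2 fold change was 1.80 ± 0.72 (SE; FDR = 0.0786), with the highest FDR of the 7 calls. It was no longer past the FDR limit without aged sham 2, 3 or 4 (FDR = 0.165, 0.154 and 0.171) or without aged bleo 3, 4 or 5 (FDR = 0.115, 0.128 and 0.167), and without aged sham 1 the log2 fold change was 2.54. With aged sham 4 and aged bleo 4, the libraries with the most pan-leukocyte marker RNA in their groups, left out together, the FDR was 0.242. On the log2(FPKM + 1) scale the change was 0.26 and missed both limits (limma, FDR = 0.115).

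Ifi27, a small membrane protein and the most abundant of these 6 by FPKM, was at 99.4, 118, 104 and 100.3 CPM in aged sham 1 to 4 and at 83.3, 83.5, 78.5, 85.5 and 78.8 CPM in aged bleo 1 to 5. The aged bleo libraries were close to each other and all below aged sham (log2 fold change -0.36 ± 0.07, FDR = 0.00448), by less than 1.5-fold. Ifi35, a partner of N-myc interactor, was at 27.7 to 32.2 CPM in aged sham and 21.3 to 26.2 CPM in aged bleo (log2 fold change -0.37, FDR = 0.00748). Trim30a, a ubiquitin ligase of the tripartite motif family, was at 31.7 to 40.8 and 22.8 to 31.3 CPM (log2 fold change -0.47, FDR = 0.0143). For both genes all aged bleo libraries were below all aged sham libraries. Xaf1, a binding partner of the apoptosis inhibitor Xiap, and Rtp4, a chaperone of cell surface receptors, had log2 fold changes of -0.11 and -0.02 (FDR = 0.596 and 0.961), and Rtp4 spanned 6.54 to 8.56 CPM in aged sham and 4.07 to 11.6 CPM in aged bleo.

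**Figure D4:**
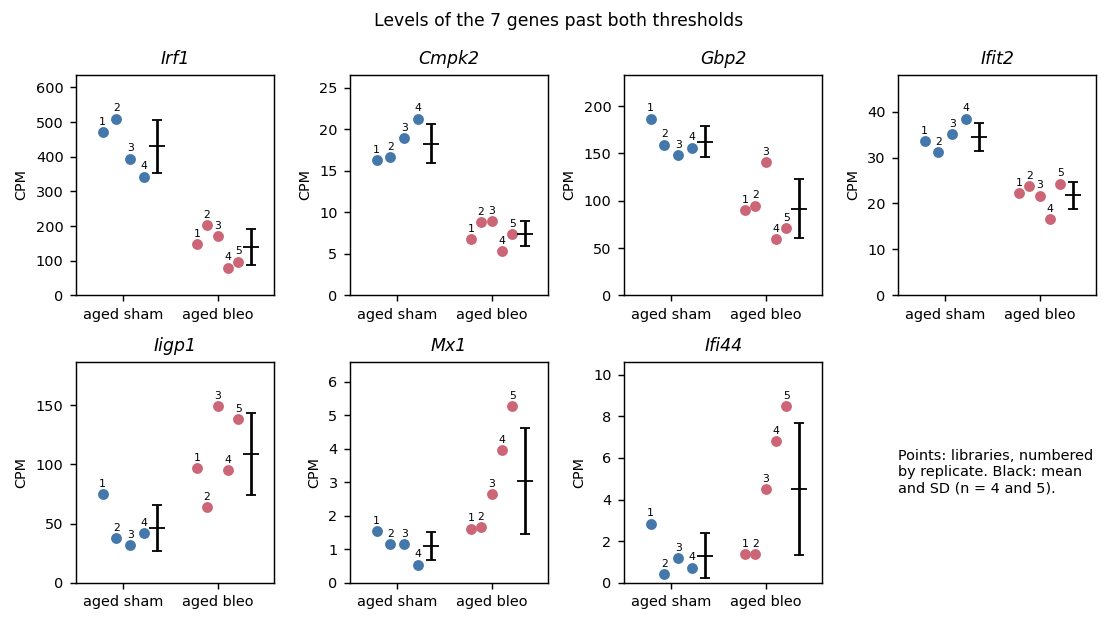
Level in CPM (vertical axes, each from 0) of the 7 called genes in each library, numbered by replicate, with the mean and SD of aged sham (blue, n = 4) and aged bleo (red, n = 5) in black. The groups do not overlap for Irf1, Cmpk2, Gbp2, Ifit2 and Mx1, while for Iigp1 aged bleo 2 and for Ifi44 aged bleo 1 and 2 lie below aged sham 1.

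In the order of FPKM, which is scaled to gene length and so allows levels to be compared between genes, Ifitm3 was followed in aged sham by Irf1 (45.4 ± 8.45), Ifi27 (30.1 ± 2.83), Gbp2 (27.1 ± 2.78) and Bst2 (25.6 ± 7.65; mean ± SD, n = 4). Ifi27, Gbp2 and Bst2 did not differ from each other beyond their spread. In aged bleo, Irf1 stood at 15.1 ± 5.15, beside Gbp2 at 15.5 ± 4.91 and Iigp1 at 15.0 ± 4.66 (n = 5), values that overlap within their SDs. At the low end, Rsad2, Mx1, Oas3 and Ifi44 were each below 1 FPKM in both groups, and 2 of the 3 genes that rose, Mx1 at 0.127 FPKM and Ifi44 at 0.0885 FPKM in aged sham, were among the 4 lowest of the 41 there.

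The spread between mice was larger in aged bleo. The median coefficient of variation of CPM over the 41 genes was 14.2% in aged sham and 27.7% in aged bleo, and it was larger in aged bleo for 32 of them, while over all tested genes the medians were 10.2% and 16.3% and it was larger in aged bleo for 12312 of 16877. Which library was highest was uneven. Aged sham 1 was the highest aged sham library for 30 of the 41 genes (73.2%) and for 29.8% of all tested genes, and it was the highest for all 5 sensors and all 7 GTPases. Among the aged bleo libraries, aged bleo 1 was highest for 0 of the 41, aged bleo 2 for 3, aged bleo 3 for 13, aged bleo 4 for 14 and aged bleo 5 for 11, where over all tested genes the shares were 14.2%, 27.6%, 11.7%, 28.9% and 17.7%. Aged bleo 1 and aged bleo 2 were lowest for 14 and 18 of the 41.

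The role groups divided between the libraries. Aged bleo 3 was the highest aged bleo library for 6 of the 7 GTPases, namely Gbp2, Gbp3, Gbp7, Igtp, Iigp1 and Irgm2. Its macrophage and pan-leukocyte marker sums were 666 and 185 CPM. Aged bleo 4 was highest for Isg15, Usp18, Oas1a, Oas3 and Oasl2, and it also had the highest macrophage, pan-leukocyte, neutrophil, and T and NK cell marker sums of its group. Aged bleo 5 was highest for Mx1, Mx2, Rsad2, Ifi44 and the 3 IFIT genes. Aged sham 1 had the lowest pan-leukocyte and macrophage marker sums of its group (116 and 199 CPM) and the highest B cell marker sum (10.6 CPM, where the other aged sham libraries held 3.21 to 4.68 CPM and the aged bleo libraries 0.930 to 2.42 CPM). All 4 B cell markers fell, where 11.5% of all tested genes did. Whether the cells behind these markers had a part in the order of the libraries was not tested.

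**Figure D5:**
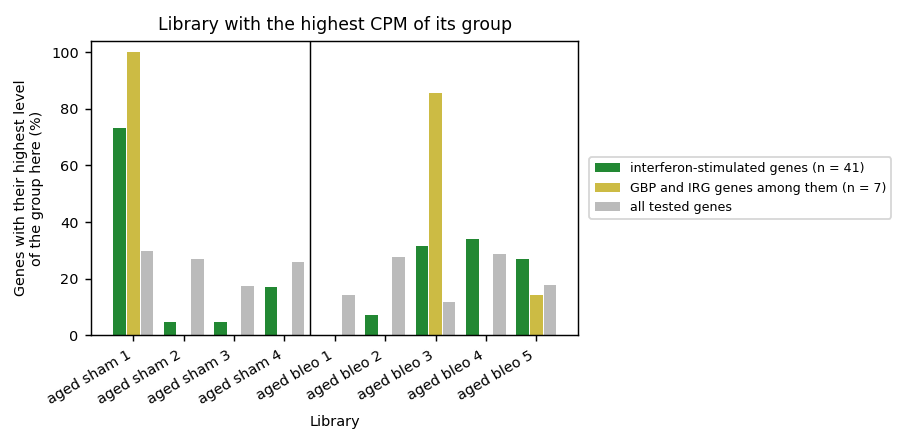
Share of genes (vertical axis, percent) that had their highest CPM within their treatment group in each library (horizontal axis), for the 41 interferon-stimulated genes (green), the 7 guanylate-binding and immunity-related GTPases among them (yellow) and all tested genes (grey). Aged sham 1 holds 73.2% of the 41 genes against 29.8% of all genes, and aged bleo 1 holds none of the 41.

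The interferon genes themselves were at or near 0 counts. None of the 10 ligand genes searched (Ifnb1, 4 of the interferon alpha genes, Ifnk, Ifne, Ifng, Ifnl2 and Ifnl3) passed the filter, 4 had 0 counts in all libraries, and the 9 other than Ifng each had at most 6 counts summed over the 9 libraries. Ifng had 56 counts in all, with 1, 10, 1 and 10 counts in aged sham 1 to 4 and 0, 2, 5, 21 and 6 counts in aged bleo 1 to 5. Its highest count was in aged bleo 4, the library with the highest T and NK cell marker sum. Aged sham 2 and aged sham 4 had equal Ifng counts, while their T and NK cell marker sums were 5.53 and 14.5 CPM. The cell source of the Ifng counts was not tested. At this depth a lower level of the ligand transcripts was not detectable.

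Of the 9 receptor and JAK kinase genes, 1 was called (11.1%, where 23.8% of all tested genes were). Jak2, a kinase of the interferon gamma receptor and of many cytokine receptors, rose by 0.64 ± 0.19 on the log2 scale (FDR = 0.0275). It was at 105, 56.6, 64.0 and 63.1 CPM in aged sham 1 to 4 and at 107, 92.5, 130.4, 104 and 128 CPM in aged bleo 1 to 5. Aged sham 1 stood with the aged bleo libraries for this gene. Among the receptor chains, Ifngr2 had a log2 fold change of 0.38 (FDR = 0.00552) and Ifngr1 one of -0.42 (FDR = 0.0412), both past the FDR limit and under 1.5-fold, and in each the groups did not overlap. The type I receptor chain Ifnar1 had 0.20 (FDR = 0.0537), also past the FDR limit and under 1.5-fold, and Ifnar2 had -0.11 (FDR = 0.474). Jak1 and Tyk2, the kinases of the type I receptor, had log2 fold changes of -0.46 (FDR = 0.0126) and -0.19 (FDR = 0.109), and Jak1 differed by the test at less than 1.5-fold.

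Of the 6 negative regulators 2 were called (33.3%, where 23.8% of all tested genes were). Socs1 and Socs3, which block JAK kinases, fell, with log2 fold changes of -0.64 (FDR = 0.0376) and -1.23 (FDR = 0.00859). Socs3 was at 881 to 1149 CPM in aged sham and 249 to 696 CPM in aged bleo.

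Of the 13 genes that act upstream of interferon production, 3 fell and 1 rose (30.8% called, where 23.8% of all tested genes were). Myd88, the adaptor of most Toll-like receptors, was at 119.5 to 132 CPM in aged sham and 48.5 to 68.2 CPM in aged bleo (log2 fold change -1.09, FDR = 1.33e-04). Mb21d1, which encodes the DNA sensor cGAS, fell by a log2 fold change of -0.98 (FDR = 0.00250), and Trex1, a nuclease that clears cytosolic DNA, by one of -0.69 (FDR = 0.00199). Tlr7, a receptor for single-stranded RNA that is known mainly from immune cells, rose, with 1.23 to 2.92 CPM in aged sham and 2.36 to 8.97 CPM in aged bleo (log2 fold change 1.45, FDR = 0.0221) and was highest in aged sham 4 and aged bleo 4, the libraries with the highest pan-leukocyte marker sums of their groups.

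Of 32 other interferon-induced genes, 31 were in the table and 30 were tested, and 0 rose and 7 fell in edgeR's test. The 7 are 23.3% of those tested, where 23.8% of all tested genes were called, 12.3% higher and 11.5% lower. DESeq2 called 0 higher, limma-trend 1, and 1 gene with a positive fold change had an unadjusted p under 0.05. At an FDR under 0.10 and any fold, 0 were higher and 10 lower, where 23.4% of all tested genes were higher and 21.4% lower. The largest falls were those of Ifi205 (-1.25, FDR = 0.0364) and Ifi204 (-1.23, FDR = 0.00240), of the family of cytosolic DNA-binding proteins, and the others that fell were Ifi203, Oas1b, Sp100, Isg20 and Trim21, with log2 fold changes from -0.79 to -0.63. The T cell chemokine Cxcl9, an interferon gamma target, was at 15.2, 0.804, 0.253 and 1.05 CPM in aged sham 1 to 4 and at 4.59, 3.23, 9.34, 10.5 and 8.90 CPM in aged bleo 1 to 5 (log2 fold change 0.75 ± 1.00, FDR = 0.589). Aged sham 1 was above every other library for Cxcl9, and Cxcl10 and Cxcl11 were also highest there, at 50.1 and 2.08 CPM.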

How the data were processed

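The data are RNA-Seq libraries of sorted fibroblasts, 4 aged sham and 5 aged bleo, 1 library per sample label, so p-values measure the spread between these samples. RNA was enriched by poly-A selection, and the library kit does not mark strand, so reads from overlapping genes or close paralogs may have been mixed. Of the 41 genes, 14 overlap another gene, Ifit3 and Oas1a share most of their sequence with a paralog, and the other 39 share at most 12.7% of their 50-base windows. The authors deposited 1 table with whole-number read counts of 43346 genes, not normalized, and FPKM values, which the authors scaled to gene length and library total. The submitters' processing notes name STAR 2.5.2b, Subread, featureCounts, bcl2fastq, mm10 and GRCm38, and 30 of the 41 genes have the same start and end in GENCODE M21.

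The filter and thresholds follow the study's methods. Genes averaging 25 or more counts were tested with edgeR 4.0.16 (TMM, glmQLFit, glmQLFTest) in R 4.3.3, with no covariate. FDR is the Benjamini-Hochberg adjusted p-value over all 16877 genes tested, and genes with FDR under 0.10 and fold change over 1.5 were called. Standard errors were derived from each fold change and its test statistic, and CPM uses TMM factors. Alternatives were DESeq2 1.42.0, limma 3.58.1 (limma-trend on log2 CPM, with a prior count of 2, and limma on log2(FPKM + 0.1) and log2(FPKM + 1)), other scalings, filters and thresholds, libraries left out, and a replicate block. The edgeR, DESeq2 and limma-trend fits were tested on simulated counts, and the other alternatives were not. Libraries of a group were not duplicates, since the chi-square between their counts was 31.1 to 469 times its degrees of freedom.

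The 41 genes and all lists were chosen with earlier results of these data known. Every one of the 41 is named, with values in every library for each called gene and for the gene of highest FPKM in each role group, and of the pathway lists those called and the main ligand, receptor and kinase genes are named. Cxcl9, Cxcl10, Cxcl11, Epcam, Pecam1, Ptprc, Tek, Kdr and the 7 fibroblast markers were named besides. The list of further transcription factors of the pathway is not reported here.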

Additional observations from a re-analysis of the deposited data

Results flagged for a closer look

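In 5 of 82 groups checked (41 genes in aged sham and in aged bleo), 1 library stood apart from the rest of its group, where chance gives about 1 in 20 groups. In 3 of them it was aged sham 1, with Parp14 at 75.4 CPM (next highest 54.6), Bst2 at 67.6 CPM (next highest 42.0) and Gbp3 at 38.6 CPM (next highest 22.1). In aged bleo, Oas3 stood at 4.19 CPM in aged bleo 4 (next highest 1.23) and Irgm2 at 32.3 CPM in aged bleo 3 (next highest 20.7). None of these 5 genes was called.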

How the results depend on the processing

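With DESeq2, limma-trend, limma on log2(FPKM + 0.1), RLE, library size only, no filter, or at least 10 counts in every library, 3 or 4 of the 41 genes were called higher and 4 lower. Limma on log2(FPKM + 1) called 1 higher and 3 lower, without Ifit2 (all tested genes 960 higher and 825 lower). The stricter thresholds called 2 higher and 2 lower (all tested genes 1224 higher and 934 lower). With no fold threshold 5 were higher and 13 lower (all tested genes 3944 and 3609). With each library left out in turn, 2 to 5 were called higher and 4 or 5 lower. The largest counts higher were 5 without aged bleo 1 or aged bleo 2, with Zbp1 and Rsad2 added. Without aged sham 4 and aged bleo 4 together, 2 were called higher and 3 lower, and Ifi44 (FDR = 0.242) and Ifit2 were lost.

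The labels do not say whether the replicate numbers pair samples. Same-numbered libraries had correlations of deviations from -0.13 to 0.33, with 1 of 4 over 0.1. Of the 4 aged sham libraries, 1 correlated best with its own number. So few pairs cannot decide the question. Fitted with the number as a replicate block over libraries 1 to 4, 1 was called higher and 4 lower, and Mx1 (1.12, FDR = 0.146) and Ifi44 (1.52, FDR = 0.178) were not called.

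Log2 fold changes under the stricter thresholds and under no fold threshold are those of the main fit and could not turn sign. Of 861 log2 fold changes of single genes under alternatives, with those included, 50 turned sign, in 16 genes of which 0 were called. In the block fit these were Isg15 (-0.042), Usp18 (-0.099), Dtx3l (-0.029) and Oas3 (-0.052). Without aged sham 4 and aged bleo 4 together they were Isg15 (-0.029), Usp18 (-0.16), Dtx3l (-0.027), Oas3 (-0.12), Bst2 (-0.17) and Igtp (-0.028). Oasl2 turned with limma on log2(FPKM + 0.1) (0.0039) and log2(FPKM + 1) (0.0072), library size only (0.0019) and no filter (0.0054), Gbp7 with both FPKM fits (0.015 and 0.010), and Rtp4 with library size only (0.0048). As each library was left out, values ran from -0.083 to 0.30 for Bst2, -0.017 to 0.14 for Ddx58, -0.035 to 0.075 for Dtx3l, -0.34 to 0.11 for Gbp3, -0.15 to 0.15 for Gbp7, -0.34 to 0.032 for Ifit1, -0.21 to 0.025 for Ifit3, -0.17 to 0.31 for Igtp, -0.31 to 0.017 for Irf7, -0.10 to 0.50 for Isg15, -0.27 to 0.032 for Mx2, -0.67 to 0.84 for Oas3, -0.13 to 0.16 for Oasl2, -0.11 to 0.011 for Parp9, -0.25 to 0.13 for Rtp4 and -0.083 to 0.51 for Usp18. The cause of these turns was not tested. Genes with few counts, such as Oas3, Mx1 and Ifi44, are the least precise at this depth.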
